A study of Mus musculus with 12 samples.

Results

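Primary mouse hepatocytes lacking Fxr were compared with wild-type hepatocytes while both were treated with FAC, in a study whose title concerns iron overload. The comparison uses 6 of the study's 12 RNA-seq libraries: 3 of Fxr-/- cells with FAC (libraries 4, 5 and 6, called KO FAC here) and 3 of wild-type cells with FAC (libraries 4, 5 and 6, called WT FAC). The libraries were picked by their genotype and treatment labels, and no measured value entered that choice. All cells were liver-derived hepatocytes of C57BL/6 mice, kept in DMEM with 10% FBS and given the agent at 100 µM for 24 h. The labels abbreviate the agents as FAC and AC. The remaining 6 libraries are Fxr-/- and wild-type cells given AC at the same dose and time (KO AC and WT AC, 3 each), and they serve as the second setting in which the genotypes can be compared. Of 16728 genes in the deposited table, 12275 had enough reads to be tested.

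The labels give no sex or age of the mice, no description of the Fxr allele, and nothing that says whether libraries of a group came from separate animals or separate cultures. The p-values therefore measure the spread between these libraries, which may be technical. Fxr-/- and wild-type cells come from different mice, so genotype cannot be told apart from other differences between the mice or cell preparations. No group of untreated cells is among the 12 libraries. In bulk RNA, fewer cells of a type and less RNA per cell cannot be told apart.

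Fxr, encoded by Nr1h4, is a nuclear receptor that binds bile acids. In the liver it is known to raise the bile salt export pump Abcb11 and the repressor Nr0b2 (Shp), and to lower bile acid synthesis through Cyp7a1 and Cyp8b1 and bile acid uptake through Slc10a1. Hepatocytes also set body iron: they secrete hepcidin (Hamp), which lowers the iron exporter ferroportin (Slc40a1) on other cells. Iron-loaded cells usually store iron in ferritin (Fth1 and Ftl1) and lower the transferrin receptor Tfrc, whose mRNA is kept stable by iron regulatory proteins when iron is scarce. Hepcidin transcription is known to respond to BMP ligands acting through SMAD proteins, for which Id1 and Smad7 serve as common readouts.

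Depth was even, at 16464494 to 18335700 estimated reads over the 12 libraries. In a principal component analysis of the 6 FAC libraries, the first component (76% of the variance) separated the genotypes. The second (12.1%) spread the KO FAC libraries, with KO FAC 4 at 30.36, KO FAC 5 at 2.217 and KO FAC 6 at -29.07, while the WT FAC libraries lay between -8.406 and 3.134. Correlations of log2 levels across genes were 0.9927 to 0.9941 among WT FAC libraries, 0.9764 to 0.987 among KO FAC libraries and 0.9353 to 0.951 between genotypes. Calls of named genes that change without KO FAC 4 or KO FAC 6 are given both ways. The 50 most abundant genes took 22.11% to 22.29% of the reads in WT FAC and 24.91% to 25.1% in KO FAC.

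The targeted gene was measured first. Nr1h4 (chromosome 10, 89454234 to 89533645, GRCm38.p6) stood at 7, 6.95 and 7.69 CPM (counts per 1000000 reads) in WT FAC libraries 4, 5 and 6, and at 3.54, 4.45 and 4.89 CPM in KO FAC libraries 4, 5 and 6. The KO libraries were all below the WT libraries, but reads of the gene remained in each of them. The log2 fold change was -0.75 ± 0.16 (SE, edgeR adjusted p = 0.00157), and -0.81 under AC. The part of the gene deleted in the mice is not given in the labels, so a gene-level count cannot tell whether these reads come from outside it.

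Listed markers of other liver cells were checked in the same libraries. The markers Timd4 (macrophages), Clec4g (sinusoidal endothelium), Lum, Cygb and Colec11 (stellate cells and fibroblasts), and Cd4 and Cd79a (lymphocytes) had 0 reads in all 6 FAC libraries. These were 1 of 21 macrophage, 1 of 19 endothelial, 3 of 19 stellate cell and fibroblast, and 2 of 12 lymphocyte and neutrophil markers. The other listed markers in the table had reads, so the markers at 0 do not show that a cell type was absent. Of all tested genes 24.6% were called higher in KO FAC and 24.9% lower, by the rule given below. Among 9 tested macrophage markers 1 was called higher and 5 lower, and among 17 endothelial markers 4 higher and 10 lower. Among 8 stellate cell and fibroblast markers 0 were called higher and 6 lower, and among 10 cholangiocyte markers 5 higher and 1 lower. Examples, as reads summed over 3 WT FAC and then 3 KO FAC libraries, were Cdh5 of endothelial cells (486 and 57), Pecam1 (398 and 67), Lyz2 of macrophages (142 and 23) and Col1a1 of fibroblasts (80 and 6). Summed levels did not follow these counts in each list. The macrophage sum was 659 to 709 CPM in WT FAC and 729 to 864 CPM in KO FAC and consisted mostly of Cd68 (log2 0.27, and 0.23 with an edgeR adjusted p of 0.0793 without KO FAC 4), and the stellate sum was 65.4 to 73.4 against 45.5 to 50.7 CPM, mostly Ecm1. The endothelial sum was 97 to 103 against 117 to 125 CPM, led in KO FAC by Egfl7, Flt4, Oit3 and Stab2, which were the 4 members called higher. The cholangiocyte sum was 1050 to 1070 against 1370 to 1580 CPM, mostly Cldn4, and the lymphocyte and neutrophil sum 0.631 to 0.985 against 0.0654 to 1.04 CPM. The sum over 28 hepatocyte secretory and identity genes was 63200 to 65400 CPM in WT FAC and 73000 to 75900 CPM in KO FAC, so hepatocyte markers were abundant in both groups. Their part in the results that follow was not tested.

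Loss of Fxr under FAC went with different RNA levels for about 1 gene in 2. A gene is called here when its adjusted p (edgeR quasi-likelihood test, Benjamini-Hochberg over all 12275 tested genes) is under 0.05. By that rule 6071 genes (49.5%) were called, 3018 higher in KO FAC (24.6%) and 3053 lower (24.9%). The 3 KO and 3 WT libraries did not overlap for 7260 genes (59.1%). The median absolute log2 fold change was 0.331, so most differences were small, and 1504 genes were called with at least a 2-fold change. Large changes were mostly increases: 1057 of those 1504 genes were higher in KO FAC and 447 lower. Leaving out KO FAC 4 gave 3050 higher and 2910 lower, and leaving out KO FAC 6 gave 2952 higher and 2765 lower.

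The split between higher and lower depended on the scale. Higher genes made up 49.7% of the calls with TMM scaling, 50.9% with median-of-ratios scaling, 34.9% with limma on log2(FPKM + 1) and 28.2% with limma on log2(TPM + 1). The median over all tested genes was -0.01 with TMM, -0.105 on the FPKM scale and -0.17 on the TPM scale. List medians below are on the TMM scale and are read against a median of -0.01 and the shares of 24.6% and 24.9%. Where a list's median has the opposite sign on the TPM scale, its TPM value is given beside it. More members were called lower than higher on that scale, but not with TMM, in lists that included nuclear receptors (7 higher and 8 lower), hepcidin and BMP-SMAD genes (5 and 8), haem genes (4 and 8), iron-sulfur cluster genes (3 and 6), ferroptosis genes (5 and 10), the integrated stress response (8 and 12) and oxidative phosphorylation subunits (8 and 9).

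**Figure D1:**
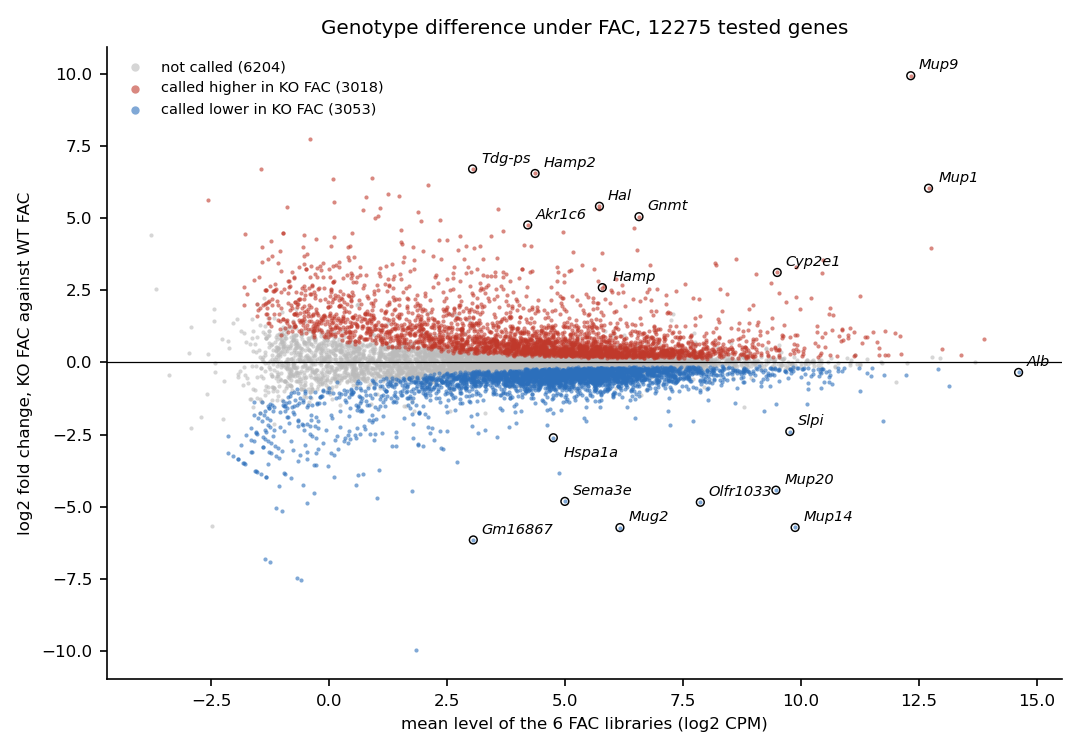
Each point is a tested gene, with its mean level over the 6 FAC libraries on the horizontal axis (log2 CPM) and its log2 fold change, KO FAC against WT FAC, on the vertical axis; red genes were called higher in KO FAC (3018), blue genes lower (3053) and grey genes not called. Mup9 at 9.93 and Mup14 at -5.71 lie at opposite ends among abundant genes, and Alb, the labelled gene with the most reads, lies at -0.35.

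The 12 largest increases included urinary proteins, enzymes of amino acid breakdown and genes of other kinds. The highest was Mup9, one of the major urinary proteins, at 10.1, 10.1 and 11.3 CPM in WT FAC and 10031, 9878 and 10788 CPM in KO FAC. Next among genes with a mean FPKM of at least 5 came Tdg-ps (log2 6.70 ± 0.24), Hamp2 (6.54 ± 0.21) and Mup1 (6.03 ± 0.10). All of these have close copies in the genome, so how reads were divided among the copies is uncertain. Hal, the histidine-degrading enzyme, rose from 2.37, 2.41 and 2.52 to 130, 95.2 and 85.5 CPM, a 42.4-fold increase (log2 5.41 ± 0.29, edgeR adjusted p = 4.29e-08). Bhmt, which remethylates homocysteine, stood at 2.31, 3.83 and 1.55 CPM in WT FAC and at 99.1, 96.8 and 111 CPM in KO FAC. Gnmt, which consumes S-adenosylmethionine, stood at 6.1, 6.3 and 4.24 CPM and then 178, 172 and 201 CPM. For these enzymes each KO library was at least an order of magnitude above each WT library. The muscle-associated genes Csrp3 and Jsrp1 rose as well, Csrp3 from 0.113, 0.11 and 0.0574 to 2.62, 5.89 and 7.98 CPM and Jsrp1 from 0.282, 0.274 and 0.172 to 4.63, 9.03 and 8.79 CPM.

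The largest decreases did not belong to one function. Mup14 fell from 1901, 1775 and 1843 CPM to 36.1, 31.3 and 37.7 CPM, and Mup20, the pheromone darcin, from 1344, 1320 and 1390 to 64.5, 62.5 and 62.1 CPM. Mug2, a murinoglobulin with close copies, fell from 144, 157 and 121 to 2.38, 3.07 and 2.56 CPM. The predicted gene Gm16867 fell from 17.3, 17.5 and 14.4 CPM to 0.305, 0 and 0.349 CPM. The groups were far apart in each case. The olfactory receptor gene Olfr1033 (469, 420 and 463 to 20.5, 15.3 and 11.4 CPM), the secreted guidance protein Sema3e (60.3, 69.9 and 54.5 to 2.74, 1.90 and 1.92 CPM) and the cadherin Cdh17 (60.6, 48.5 and 54.8 to 4.02, 4.38 and 3.14 CPM) fell as well. Slpi, a secreted inhibitor of leukocyte proteases, fell from 1581, 1389 and 1400 to 365, 287 and 181 CPM. KO FAC 4 was the highest and KO FAC 6 the lowest of the KO libraries for Slpi.

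Genes that Fxr is known to induce were mostly higher, not lower, in KO FAC. Of 28 tested members 18 were called higher and 1 lower, with a median log2 fold change of 0.94. The members that rose most encode plasma proteins and enzymes: the fibrinogen chain Fga went from 154, 171 and 201 CPM to 1510, 1763 and 1918 CPM, a 9.86-fold increase (log2 3.30 ± 0.13, edgeR adjusted p = 6.34e-10). The other chains Fgg and Fgb rose by log2 2.26 ± 0.14 and 1.87 ± 0.14. The drug-metabolising enzyme Cyp3a11 went from 160, 199 and 146 to 1163, 1114 and 1137 CPM, and the bile acid-CoA ligase Slc27a5 from 66.5, 70.9 and 61.1 to 207, 217 and 229 CPM. No KO library overlapped a WT library for these genes. The member called lower was Abcc2, the canalicular exporter of conjugated organic anions, at 556, 594 and 532 CPM in WT FAC and 228, 212 and 201 CPM in KO FAC (log2 -1.39 ± 0.10, edgeR adjusted p = 1.51e-07).

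The best known direct Fxr targets did not pass the test or were not tested. Abcb11, the bile salt export pump, stood at 5.48, 7.12 and 5.05 CPM in WT FAC and 4.15, 5.36 and 4.19 CPM in KO FAC. The ranges overlapped, and the difference did not pass the test (log2 -0.37 ± 0.18, edgeR adjusted p = 0.102). Nr0b2 had 19 reads over the 3 WT FAC libraries and 16 over the 3 KO FAC libraries (log2 -0.12 ± 0.81, edgeR adjusted p = 0.917). The phospholipid floppase Abcb4 stood at 115, 124 and 178 CPM against 64.3, 123 and 161 CPM, with KO FAC 4 lowest (log2 -0.26 ± 0.33, edgeR adjusted p = 0.534). The basolateral bile acid exporter subunit Slc51b had 1 read in WT FAC and 2 in KO FAC and was not tested.

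Because Abcb11 is the textbook case of an Fxr site, its promoter was read for the inverted repeat with 1 spacer base that Fxr binds. The search used AGGTCANTGACCT on both strands in windows from 250 bases before to 50 bases after the gene start, with up to 2 mismatches over the 12 half-site bases. The window of Abcb11 is shown with the matched half-sites in capitals (RefSeq, GRCm38.p6, chr2:69342567-69342866, minus strand, 5′ to 3′).
Abcb11: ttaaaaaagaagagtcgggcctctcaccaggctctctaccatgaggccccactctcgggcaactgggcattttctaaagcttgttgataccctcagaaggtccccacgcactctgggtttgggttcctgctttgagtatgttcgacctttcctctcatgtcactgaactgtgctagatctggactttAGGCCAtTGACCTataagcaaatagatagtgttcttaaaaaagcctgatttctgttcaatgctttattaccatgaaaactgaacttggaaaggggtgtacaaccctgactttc
The match has 1 mismatch and begins 63 bases before the gene start. Such matches were rare and about equally so among genes that rose and fell: of 9853 tested genes with a window, 117 (1.19%) had one with up to 2 mismatches, against 30 of 2392 genes called higher (1.25%) and 26 of 2455 called lower (1.06%). Of 24 Fxr-induced genes with a window, 1 (4.17%) had a match, which was Abcb11 itself.

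Genes that Fxr is known to repress were also mostly higher. Of 11 tested members 8 were called higher and 1 lower, with a median of 1.02. Without KO FAC 6 the count was 6 higher and 1 lower. Slc10a1 (Ntcp), the main uptake transporter for conjugated bile acids, went from 2.20, 2.57 and 2.24 CPM to 21.2, 18.4 and 22.1 CPM, an 8.77-fold increase (log2 3.13 ± 0.14, edgeR adjusted p = 6.34e-10). Slco1b2, an organic anion uptake transporter of the same membrane, went from 1.19, 1.42 and 1.66 to 11, 14.4 and 16.8 CPM. Both uptake genes were several fold higher in every KO library than in any WT library.

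Synthesis genes differed step by step. Cyp7a1, the rate-limiting enzyme, had 1 read in WT FAC and 23 in KO FAC and was not tested. Cyp8b1, which makes cholic acid, stood at 1.58, 2.79 and 2.70 CPM in WT FAC and at 2.93, 10.8 and 13.3 CPM in KO FAC (log2 1.93 ± 0.56, edgeR adjusted p = 0.0144). KO FAC 4 was close to the WT range, and the call rested on the other libraries: without KO FAC 6 the log2 fold change was 1.53 with an adjusted p of 0.0508, and without KO FAC 4 it was 2.36 with an adjusted p of 0.000551. Without WT FAC 4 the adjusted p was 0.0543. Cyp27a1, the first enzyme of the alternative pathway, rose evenly from 66.6, 71.9 and 62.7 to 136, 137 and 136 CPM (log2 1.02 ± 0.06), while the next enzyme, Cyp7b1, did not pass the test (log2 0.18, edgeR adjusted p = 0.135). The reductases of the steroid ring rose most. Akr1c6 went from 1.19, 1.64 and 1.09 to 36.8, 32.6 and 37.5 CPM, a 27.1-fold increase, and Akr1d1 from 0.282, 0.493 and 0.401 to 3.41, 3.79 and 4.37 CPM. Over the list of 20 synthesis enzymes, 12 were called higher and 1 lower, the brain cholesterol hydroxylase Cyp46a1 at log2 -1.49, and the median was 0.79. Of 5 conjugation enzymes 4 rose, among them Slc27a5 and the bile acid sulfotransferase Sult2a8 (log2 3.24 ± 0.19), and Baat, which joins bile acids to taurine, did not pass the test (log2 1.16, edgeR adjusted p = 0.088, and 1.49 with an adjusted p of 0.0373 without KO FAC 4).

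Among bile acid transporters the named uptake genes rose and efflux pumps went both ways. Of 18 tested members 11 were called higher and 2 lower, with a median of 0.62. Abcc4, a basolateral efflux pump, fell from 272, 238 and 218 to 51, 57 and 54.7 CPM (log2 -2.16 ± 0.10, edgeR adjusted p = 1.56e-09). Together with Abcc2 it was one of the 2 members that fell. Abcc3, another basolateral pump, rose from 271, 291 and 252 to 386, 369 and 351 CPM (log2 0.44 ± 0.09), and Slco1a4 and the sterol exporter subunit Abcg5 rose by log2 3.23 and 1.97.

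**Figure D2:**
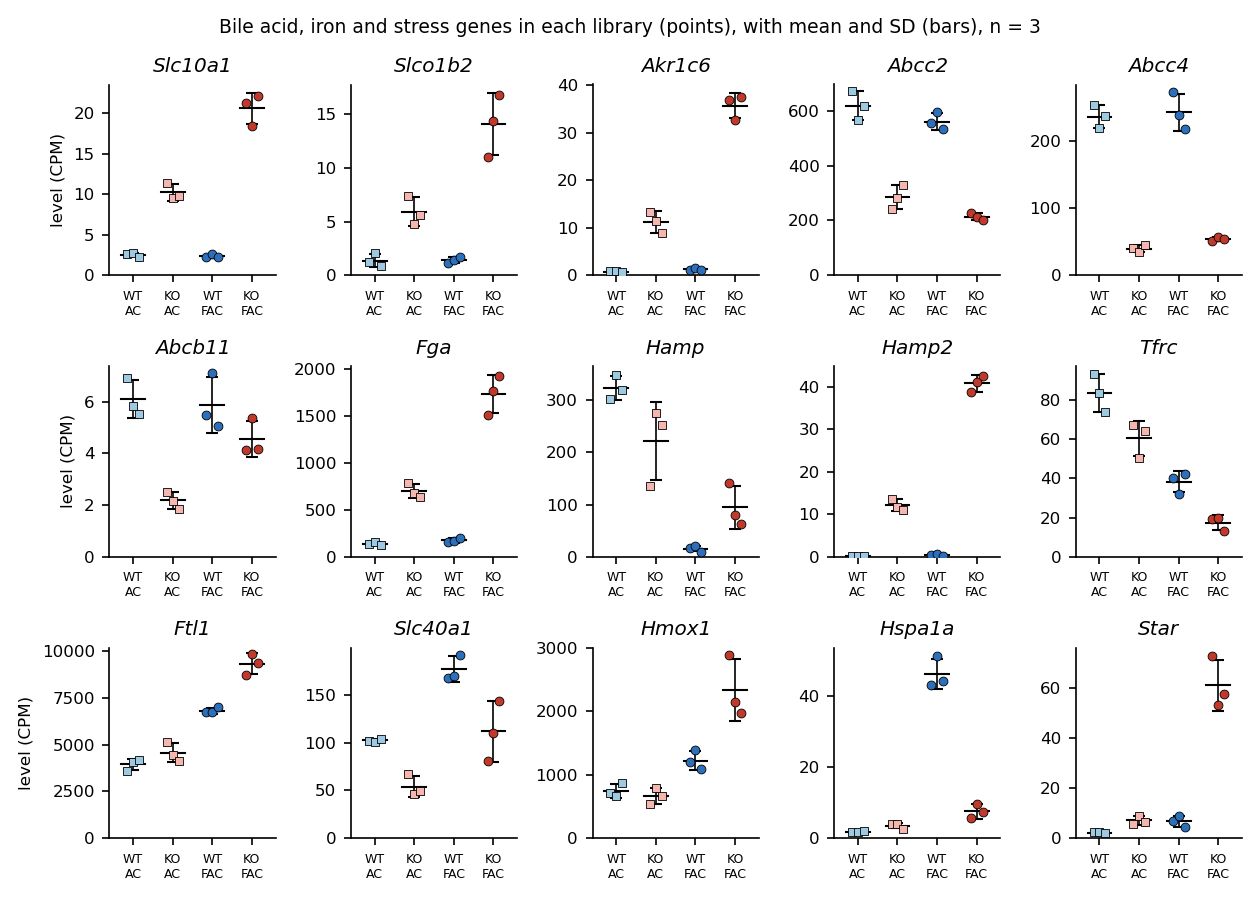
Each panel shows the level of a gene (CPM, linear axis from 0) in the 3 libraries of WT AC, KO AC, WT FAC and KO FAC, with points for libraries and bars for mean and SD. Slc10a1, Slco1b2, Akr1c6, Fga, Hamp2 and Star are highest in KO FAC, Abcc2 and Abcc4 are lower in KO with either agent, and Hspa1a is high in WT FAC only (43.2 to 51.2 CPM).

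Nuclear receptors as a group were near the background. Of 34 tested receptors and coregulators 10 were called higher and 6 lower, with a median of 0.13 (-0.06 on the TPM scale). Nr1i3 (CAR), a receptor that drives drug-metabolising enzymes, was low but rose from 0.113, 0.164 and 0.115 to 0.976, 1.57 and 1.63 CPM. The retinoic acid receptor Rarb rose by log2 2.43, at 17 summed reads in WT FAC and 86 in KO FAC. Under AC it was called lower in KO (log2 -0.78, edgeR adjusted p = 0.0439). Nr5a2 (LRH-1), which works with Fxr on bile acid genes, fell by 0.67 on the log2 scale. Hepatocyte identity transcription factors gave 4 higher and 4 lower of 24, with a median of 0.05 (-0.13 on the TPM scale), and Hnf4a did not pass the test (log2 0.13, edgeR adjusted p = 0.566).

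Hepcidin was higher in KO cells under FAC. Hamp stood at 17, 20.3 and 9.87 CPM in WT FAC and at 141, 80.9 and 61.9 CPM in KO FAC, a 6.02-fold difference (log2 2.59 ± 0.40, edgeR adjusted p = 0.000626). The groups did not overlap, and KO FAC 4 was the highest; without it the log2 fold change was 2.19. With AC the order was the other way, at 302, 348 and 319 CPM in WT AC and 135, 275 and 253 CPM in KO AC (log2 -0.54, edgeR adjusted p = 0.25), so both FAC groups lay below most AC libraries. Hamp2, the second hepcidin gene of the mouse, stood at 0.452, 0.657 and 0.172 CPM in WT FAC and 38.7, 41.1 and 42.6 CPM in KO FAC (log2 6.54 ± 0.21), and differed by log2 6.31 under AC as well. The 2 genes are near copies, so their reads were also summed: 17.44, 20.92 and 10.03 CPM in WT FAC against 180.2, 122.1 and 104.5 CPM in KO FAC (log2 3.07 ± 0.34, edgeR adjusted p = 6.63e-05).

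Upstream of hepcidin, members moved in both directions. Of 32 tested hepcidin and BMP-SMAD genes 9 were called higher and 7 lower, with a median of 0.23 (-0.05 on the TPM scale). Id1, a SMAD target, was lower in KO FAC at 4.88, 6.67 and 7.92 CPM than in WT FAC at 10, 11 and 13.6 CPM (log2 -0.83 ± 0.18, edgeR adjusted p = 0.00187), while Hamp itself was higher. Smad7, another SMAD target, was higher by log2 0.55 (edgeR adjusted p = 0.0149), but without KO FAC 4 this was 0.42 with an adjusted p of 0.0582. The BMP pseudoreceptor Bambi rose by log2 1.42 ± 0.22, at 54 summed reads in WT FAC and 133 in KO FAC. Under AC it did not pass the test (log2 -0.3, edgeR adjusted p = 0.329). Tmprss6, the protease that lowers hepcidin, rose from 62.4, 75 and 74.5 to 146, 166 and 180 CPM (log2 1.21 ± 0.09), and the iron sensor Tfr2 from 76, 82.4 and 84.9 to 147, 151 and 148 CPM. Bmp6, the iron-induced ligand, Hfe, a partner of Tfr2, and Neo1, a coreceptor-binding protein, fell by 0.68, 0.40 and 0.95 on the log2 scale.

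Genes of iron uptake, storage and export were more often lower than higher: 7 of 28 tested members were called higher and 12 lower, with a median of -0.30. Tfrc fell from 40.4, 32.3 and 42.4 to 19.3, 20 and 13.1 CPM (log2 -1.14 ± 0.17, edgeR adjusted p = 0.000139). Ferritin light chain Ftl1 rose from 6725, 6732 and 7009 to 8745, 9846 and 9377 CPM (log2 0.45 ± 0.08, edgeR adjusted p = 0.000363). The groups were separate for both genes. For the ferritin heavy chain Fth1 they were not, at 10197, 9711 and 9379 against 13340, 11508 and 9944 CPM (log2 0.25 ± 0.09, edgeR adjusted p = 0.0435), and leaving out any library other than KO FAC 6 ended the call (edgeR adjusted p of 0.0576 to 0.175). The exporter ferroportin, Slc40a1, fell from 168, 170 and 192 to 81, 110 and 144 CPM (log2 -0.66 ± 0.18, edgeR adjusted p = 0.0103), with KO FAC 4 lowest and KO FAC 6 nearest to WT. The ferrireductases went apart: Cybrd1 rose from 0.677, 0.438 and 0.631 to 9.82, 26.2 and 34.1 CPM, while Steap2 fell from 20.8, 21.2 and 18.6 to 5.43, 3.66 and 1.16 CPM. The KO libraries spread widely for both ferrireductases. The plasma carriers of haem, haemoglobin and copper all fell, haemopexin (Hpx) from 11356, 11025 and 11958 to 7072, 6584 and 5842 CPM, haptoglobin (Hp) by 0.66 and ceruloplasmin (Cp) by 0.71 on the log2 scale.

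Haem genes were called higher for 7 and lower for 3 of 21 tested members, with a median of 0.15 (-0.04 on the TPM scale). The first enzymes of haem synthesis rose: Alas1 from 118, 134 and 116 to 237, 219 and 216 CPM, Alas2, the erythroid form, from 3.22, 3.40 and 1.89 to 24.9, 20.9 and 25.8 CPM, and Alad from 27.3, 27.7 and 25.1 to 67, 68.5 and 71.3 CPM. The last enzyme, Fech, was at log2 -0.29, but at -0.18 with an edgeR adjusted p of 0.0897 without KO FAC 4. Haem oxygenase Hmox1, which frees iron from haem, rose from 1198, 1385 and 1093 to 2888, 2151 and 1967 CPM (log2 0.93 ± 0.18, edgeR adjusted p = 0.0012). KO FAC 4 was the highest library for Hmox1 and KO FAC 6 the lowest of the KO group, still above every WT library. Iron-sulfur cluster genes gave 6 higher and 3 lower of 21 (median 0.13, and -0.06 on the TPM scale).

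Of 36 Nrf2 targets and oxidant enzymes 11 were called higher and 12 lower, shares near those of all tested genes, with a median of -0.06. On the TPM scale 8 were higher and 21 lower. Genes that supply glutathione were among those that fell: Gclc, the limiting enzyme of its synthesis, fell from 924, 914 and 891 to 256, 259 and 340 CPM (log2 -1.67 ± 0.11, edgeR adjusted p = 3.69e-08), and the cystine importer Slc7a11 from 986, 1013 and 1089 to 452, 389 and 297 CPM (log2 -1.44 ± 0.21). The quinone reductase Nqo1 fell from 46, 46.4 and 46.4 to 24.5, 23.3 and 22.4 CPM, and the glutathione peroxidase Gpx2 by 2.69 on the log2 scale. Gpx4, the peroxidase that guards membranes against ferroptosis, did not pass the test (log2 0.08, edgeR adjusted p = 0.537). Hmox1 and glutathione transferases such as Gstm2 (0.88) and Gstm1 (0.62) were among the members that rose. The ferroptosis and glutathione list held 9 higher and 5 lower of 26 (median 0.09, and -0.11 on the TPM scale). Of 12 metallothionein and zinc transporter genes 3 were called higher and 5 lower. The metallothioneins, which bind zinc and other metals, rose: Mt1 from 1183, 1277 and 1008 to 2908, 2487 and 2265 CPM, and Mt2 by log2 0.89.

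Chaperones of the endoplasmic reticulum (ER) and of the cytosol moved in opposite directions. Of 23 ER chaperone and unfolded protein response genes 16 were called higher and 0 lower, with a median of 0.47. Creld2, a chaperone cofactor, went from 34.9, 32.6 and 31.5 to 175, 181 and 183 CPM (log2 2.45 ± 0.08, edgeR adjusted p = 4.81e-11). The protein disulfide isomerase P4hb went from 754, 760 and 706 to 2343, 2319 and 2363 CPM, and Hsp90b1 (Grp94) from 452, 450 and 467 to 1089, 1098 and 1191 CPM. On the TPM scale 3 members of this list were lower. Of 21 heat shock and cytosolic chaperone genes 3 were called higher and 12 lower, with a median of -0.29. The inducible Hsp70 genes fell most: Hspa1a from 43.2, 51.2 and 44.3 to 5.61, 9.74 and 7.45 CPM (log2 -2.61 ± 0.17, edgeR adjusted p = 3.39e-08), and Hspa1b from 64.2, 75 and 60.1 to 15.3, 18.8 and 18.7 CPM. They are near copies, and their summed reads fell from 107.4, 126.1 and 104.4 to 20.93, 28.6 and 26.15 CPM. Cryab, a small heat shock protein, went the other way, from 2.88, 3.78 and 2.24 to 17.6, 22.4 and 28.6 CPM (log2 2.94 ± 0.24).

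The integrated stress response list was mixed, at 11 higher and 9 lower of 29 (median 0.17, and -0.03 on the TPM scale). Ddit3 (CHOP), a transcription factor in this list, fell from 68.5, 72 and 74.1 to 35.1, 36.1 and 34.9 CPM (log2 -1.02 ± 0.09). The secreted glycoprotein Stc2 rose from 5.25, 8.16 and 6.60 to 19.7, 18.1 and 20.9 CPM. Among tRNA synthetases and amino acid transporters 5 of 27 were called higher and 12 lower (median -0.20), with the synthetases Eprs and Lars at -0.86 and -0.80 and the transporter Slc3a1 at 4.04.

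Enzymes of hepatocyte metabolism formed the broadest set of increases. Of 38 amino acid breakdown genes 30 were called higher and 3 lower, with a median of 1.18. Beside Hal, Bhmt and Gnmt, the tyrosine pathway enzymes Hpd and Hgd rose, Hpd from 6.55, 8.27 and 5.28 to 168, 166 and 175 CPM and Hgd from 1.47, 3.07 and 1.95 to 13.8, 11.8 and 15.4 CPM. In the urea cycle list 10 of 13 genes were called higher and 1 lower (median 0.75): Arg1, the last enzyme, rose 22.6-fold (log2 4.50 ± 0.14), the first enzyme Cps1 from 3.22, 4 and 3.27 to 24.5, 21.6 and 28.8 CPM, and Otc and Ass1 by log2 2.24 and 1.79. Glucose and glycogen genes gave 22 higher and 1 lower of 30 (median 0.68).

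Lipid genes followed the same direction. Of 29 lipogenesis genes 20 were called higher and 0 lower (median 0.65), of 28 cholesterol synthesis and uptake genes 24 higher and 0 lower (median 0.54), and of 33 fatty acid oxidation and ketogenesis genes 18 higher and 1 lower (median 0.35). On the TPM scale 15 cholesterol genes were higher. Scd1, which desaturates fatty acids, went from 784, 794 and 878 to 3575, 4136 and 4332 CPM (log2 2.29 ± 0.09, edgeR adjusted p = 1.12e-10), and the fatty acid translocase Cd36 from 0.79, 0.931 and 1.26 to 13.8, 15.6 and 17.7 CPM. The sterol enzymes moved less each, with Tm7sf2, Pmvk and Fdps at log2 1.26, 1.22 and 1.20. The fatty acid binding protein Fabp1 rose by log2 2.61. Star, which carries cholesterol into mitochondria, rose from 6.94, 8.87 and 4.47 to 72.6, 53.2 and 57.6 CPM (log2 3.17 ± 0.21, edgeR adjusted p = 1.26e-07). Of 30 apolipoprotein and lipoprotein genes 23 were called higher and 4 lower (median 1.21). Apoa4 rose from 273, 298 and 301 to 2387, 2590 and 2508 CPM, while lipoprotein lipase Lpl, which hepatocytes normally express little, fell by 1.52 on the log2 scale. The cholesterol exporter Abca1 was at -0.40, but at -0.34 with an edgeR adjusted p of 0.112 without KO FAC 4.

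Cytochromes P450 of families 1 to 4 had a median of 2.15, with 40 of 50 tested members called higher and 5 lower. Cyp2e1, the ethanol-inducible form, rose from 147, 170 and 130 to 1308, 1255 and 1314 CPM (log2 3.12 ± 0.09), and Cyp2c38 from 0.169, 0.438 and 0.344 to 9.33, 10.6 and 9.90 CPM. Many of these genes lie in clusters of close copies, so the division of reads between neighbours such as Cyp2c38 and Cyp2c29 (log2 3.37) is uncertain. Phase II transferases were called higher for 25 and lower for 7 of 46 (median 0.55). Carboxylesterases were divided, 5 higher and 6 lower of 13. Genes of both liver zones rose: 18 of 21 pericentral genes were called higher and 0 lower (median 1.84), and 17 of 25 periportal genes were called higher and 5 lower (median 1.43). Glul, the pericentral glutamine synthetase, was at log2 1.26.

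**Figure D3:**
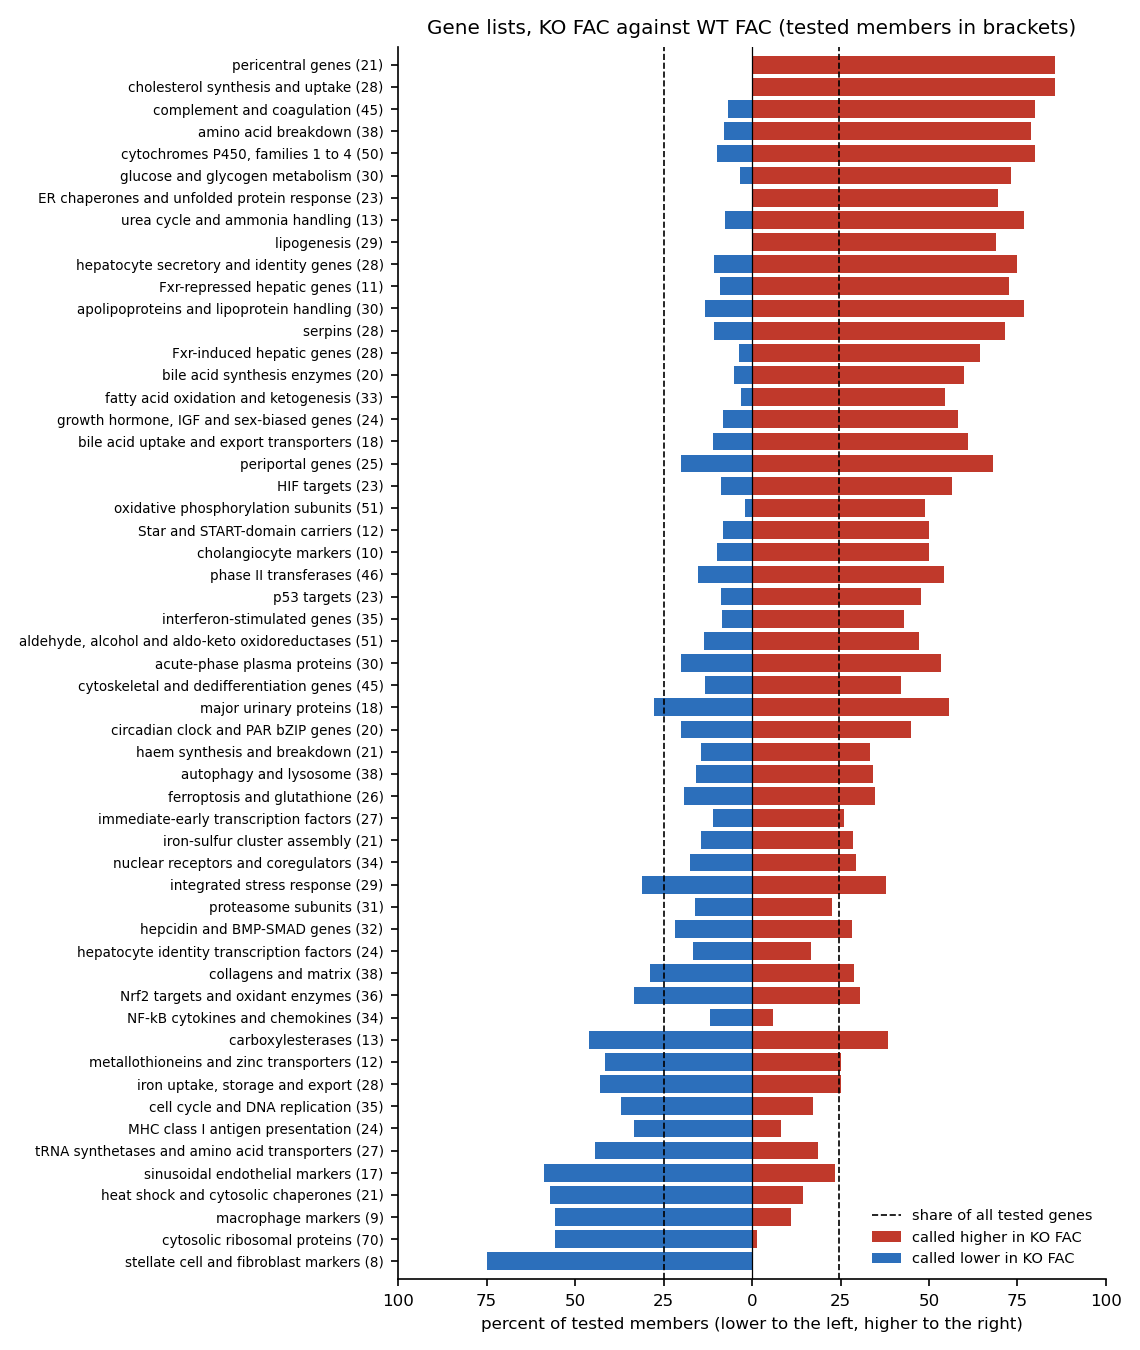
Bars give, for each list with at least 8 tested members, the percent of tested members called higher in KO FAC (red, to the right) or lower (blue, to the left), and dashed lines give the shares over all 12275 tested genes (24.6% and 24.9%). Metabolic, lipid and secreted-protein lists extend far to the right, and ribosomal proteins, cytosolic chaperones and the markers of stellate cells extend to the left.

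Secreted liver proteins were mostly higher, but the one with the most reads was lower. Complement and coagulation genes gave 36 higher and 3 lower of 45 (median 0.78), serpins 20 higher and 3 lower of 28 (median 1) and acute-phase proteins 16 higher and 6 lower of 30 (median 0.50). Orm3, an orosomucoid with close copies, rose from 2.15, 1.75 and 1.95 to 34.1, 32 and 32.2 CPM. The summed serum amyloid genes Saa1 and Saa2 rose by log2 1.39 ± 0.07. Complement factor B (Cfb) fell from 1607, 1675 and 1657 to 644, 605 and 557 CPM, and albumin (Alb) fell from 27202, 28839 and 27778 to 21918, 22180 and 21826 CPM (log2 -0.35 ± 0.04, edgeR adjusted p = 2.6e-05). The growth hormone, IGF and sex-biased list gave 14 higher and 2 lower of 24 (median 0.96), with the prolactin receptor Prlr at log2 3.22, Igf1 at 1.25 and the male-biased Cyp4a12b at -4.47.

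Major urinary proteins, small lipid carriers that the liver secretes into urine, rose as a sum while single genes went both ways. The summed Mup reads were 14070, 13600 and 14150 CPM in WT FAC and 47680, 48040 and 47200 CPM in KO FAC (log2 1.77 ± 0.08, edgeR adjusted p = 9.56e-10), or 1.39% and 4.76% of all reads. Of 18 tested Mup genes 10 were called higher and 5 lower. Mup1 went from 208, 196 and 197 to 13168, 13339 and 12788 CPM, and Mup10 from 877, 751 and 856 to 13037, 13238 and 12667 CPM. Mup14, Mup20 and Mup21 fell (log2 -5.71, -4.42 and -2.34), and Mup7 did not pass the test at 4985, 4820 and 4950 against 4851, 4909 and 4686 CPM (log2 -0.03, edgeR adjusted p = 0.779). Many Mup genes are near-identical copies, and the single-gene values of such copies depend on how estimated reads were shared among them. Under AC the fold changes were log2 10.14 for Mup9, -5.65 for Mup14 and -1.55 for Mup21, and 1.89 for the sum. The difference between the agents was called for 2 Mup genes, among them Mup21.

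**Figure D4:**
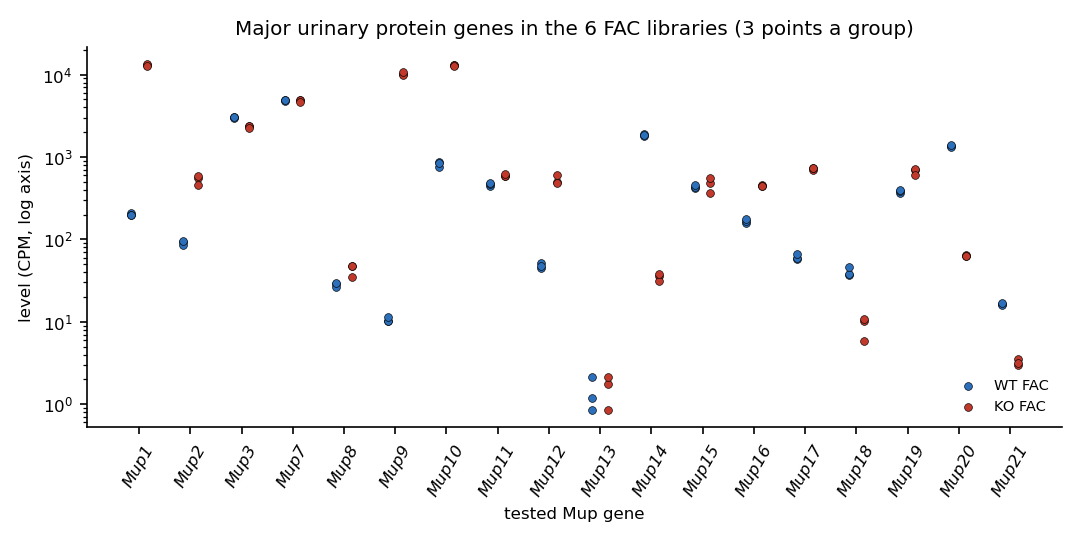
Levels of the 18 tested Mup genes (CPM, log axis) in the 3 WT FAC libraries (blue) and the 3 KO FAC libraries (red), each point a library. Mup1, Mup9 and Mup10 lie at 9878 CPM or above in KO FAC, Mup14 and Mup20 are high only in WT FAC (1320 CPM or above), and points within a group lie close together for the abundant genes.

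Fewer lists leaned lower. Of 70 cytosolic ribosomal protein genes 1 was called higher and 39 lower (median -0.19), with Rps12, Rpl5 and Rpl3 at log2 -0.53, -0.50 and -0.50. The changes were small, and the count moved with the libraries and the scale: 35 were lower without KO FAC 4, 23 without KO FAC 6 and 66 on the TPM scale. Oxidative phosphorylation subunits gave 25 higher and 1 lower of 51, also by small amounts (median 0.17, and -0.03 on the TPM scale). MHC class I genes gave 2 higher and 8 lower of 24 (median -0.13): B2m, the shared light chain, fell from 3317, 3196 and 3157 to 1620, 1751 and 1456 CPM, and the liver-secreted H2-Q10 rose by log2 1.04. Cell cycle genes gave 6 higher and 13 lower of 35 (median -0.29), with the replication helicase subunits Mcm2, Mcm5 and Mcm4 at -0.93, -0.86 and -0.76. Interferon-stimulated genes gave 15 higher and 3 lower of 35 (median 0.11, and -0.07 on the TPM scale).

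NF-kB cytokine and chemokine genes depended on which KO library was counted. Of 34 tested members 2 were called higher and 4 lower. Without KO FAC 6 there were 15 higher and 5 lower, and without KO FAC 4 there were 1 higher and 7 lower. Ccl4, a macrophage-attracting chemokine with 124 summed reads in WT FAC and 16 in KO FAC, fell in each case. Its log2 fold change was -2.79, and -3.37 and -2.28 without KO FAC 4 and 6. Immediate-early genes gave 7 higher and 3 lower of 27. Without KO FAC 6 they gave 12 higher and 3 lower, but without KO FAC 4 the counts changed little, at 6 higher and 4 lower.

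Matrix genes went both ways. Of 38 collagens and matrix genes 11 were called higher and 11 lower (median -0.02). Fibroblast-type genes were lower, with Sparc at 11.1, 11.8 and 13.1 CPM in WT FAC and 1.10, 0.85 and 1.34 CPM in KO FAC, and Serpinh1, the collagen chaperone, at 164 and 10 summed reads. Col1a2 had 42 reads in WT FAC and 0 in KO FAC. These genes fell alongside the stellate and fibroblast markers given above, whose part in the result was not tested. The crosslinking enzyme Loxl2 rose from 23.7, 26.2 and 24.4 to 73.2, 87.7 and 91.3 CPM. Cytoskeletal and dedifferentiation genes gave 19 higher and 6 lower of 45 (median 0.28): keratins Krt8 and Krt18 and vimentin (Vim) rose by log2 0.87, 0.87 and 0.93, and Spp1 (osteopontin) fell by 2.03 on the log2 scale.

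The genotype difference under FAC was set beside that under AC. The 2 comparisons share no library. Under AC 5265 genes were called (42.9%), 2667 higher in KO (21.7%) and 2598 lower (21.2%). Genes called in both comparisons in the same direction numbered 1976 higher and 1876 lower, which is 63.4% of the calls under FAC and 73.2% of those under AC. Opposite calls were few: 30 genes were higher under FAC and lower under AC, and 24 the reverse. All 24 genes with the largest changes under FAC had the same sign under AC except Hspa1a. Across the tested genes the fold changes correlated at r = 0.84, which describes genes and not independent replicates.

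The difference between the 2 genotype effects was itself tested, and it was called for 387 genes (3.15%), 230 with a more positive effect under FAC and 157 with a more negative one. At an unadjusted p under 0.05 there were 2346. A call under one agent alone was therefore rarely a called difference: of 2165 genes called under FAC and not under AC, 145 had one. The count of 387 depended on single libraries. It was 95 without WT AC 3, 138 without WT AC 2, 587 without KO AC 1, 188 without KO AC 2 and 175 without KO AC 3. It was 138, 145 and 142 without WT FAC 4, 5 and 6, and 643 and 167 without KO FAC 4 and 5. DESeq2 gave 658, and a replicate block 84.

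Genes with a called difference included several already described. Hspa1a and Hspa1b were lower in KO under FAC but higher in KO under AC (log2 0.90 and 1.10), and the difference was -3.51 (edgeR adjusted p = 3.04e-05) and -3.01 (edgeR adjusted p = 9.82e-06). In WT cells Hspa1a stood at 1.91, 1.73 and 2.02 CPM with AC against 43.2, 51.2 and 44.3 CPM with FAC, and in KO cells at 3.90, 3.99 and 2.68 CPM against 5.61, 9.74 and 7.45 CPM. The KO values thus lay between the WT extremes. For Hamp the difference was 3.14 (edgeR adjusted p = 0.0215), for Hmox1 1.09 (edgeR adjusted p = 0.0418) and for Ddit3 -1.13 (edgeR adjusted p = 0.000558). The Ddit3, Hspa1a and Hspa1b differences kept their call under each alternative run. Those of Hamp and Hmox1 did not, with adjusted p of up to 0.0605 and 0.103, and the Hamp call ended when libraries 2 or 3 of WT AC, or library 4 of WT FAC, were left out.

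Bile acid transporters and membrane receptors were among the other genes with a called difference. The Slc10a1 effect was log2 3.13 under FAC and 1.99 under AC (difference 1.14, edgeR adjusted p = 0.0105, and 0.0568 with the replicate number as a block). Abcb11 was lower in KO under AC, at 6.93, 5.84 and 5.53 against 2.52, 2.16 and 1.86 CPM, with a difference of 1.11 between the effects (edgeR adjusted p = 0.0392, and up to 0.0995 over the alternatives). The vasopressin receptor Avpr1a stood at 1.47, 2.41 and 1.43 CPM in WT FAC and 22.8, 17 and 25.4 CPM in KO FAC, against 5.94, 5.52 and 7.88 CPM in WT AC and 10.1, 14.4 and 11.8 CPM in KO AC. Fgfr4, the hepatic receptor for the gut hormone FGF15, stood at 0.903, 0.821 and 1.72 CPM and 10.2, 11.4 and 12.2 CPM in the FAC groups, against 5.94, 9.20 and 7 CPM and 13.5, 15.6 and 18 CPM in the AC groups. For both receptors the WT FAC libraries were the lowest of all 12. Sprr1a, an epithelial envelope protein, was at 112, 118 and 109 CPM in WT FAC and 853, 1004 and 960 CPM in KO FAC, and in AC at 457, 645 and 517 against 1020, 893 and 956 CPM.

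**Figure D5:**
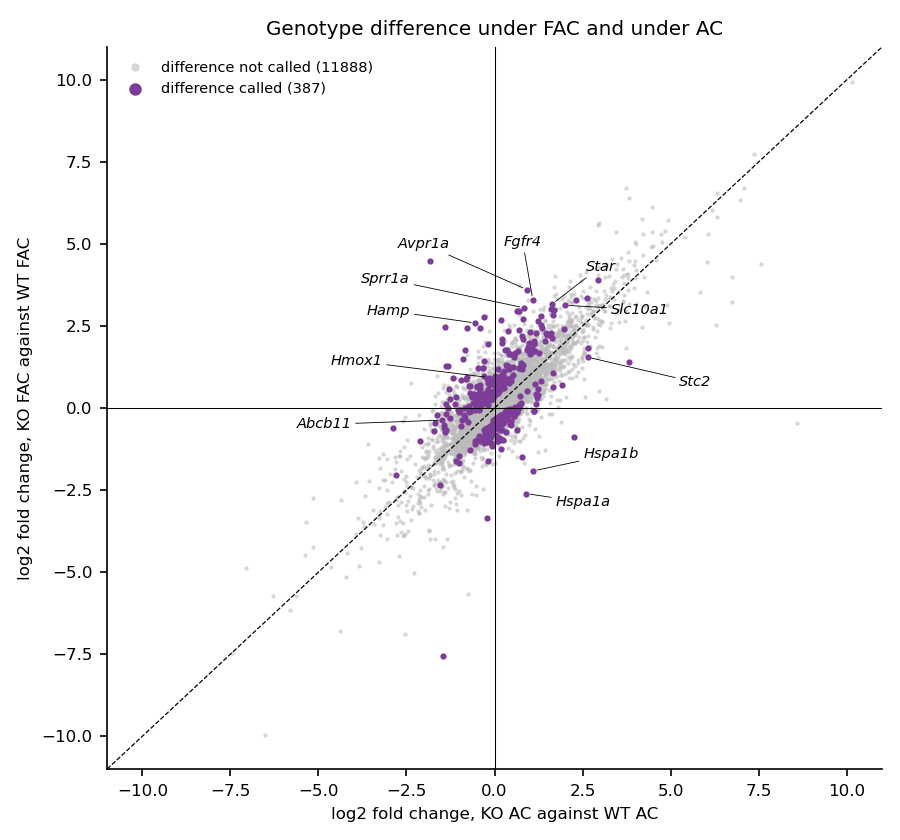
Each point is a tested gene, with its log2 fold change KO against WT under AC (horizontal) and under FAC (vertical); purple points are the 387 genes with a called difference between the 2 effects, and the dashed line marks equal effects. Most points lie near the line, Hamp and Avpr1a lie above it, and Hspa1a and Hspa1b lie below it on the lower right.

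Genes on chromosome 10 near the targeted locus were counted separately. Of 55 tested genes starting within 5 Mb of Nr1h4, out of 71 in the table and with Nr1h4 itself included among those called lower, 21 were called higher and 18 lower, which is 70.9% against 49.5% over all tested genes, with a median of 0.05. Under AC 17 were higher and 14 lower. Hal, 4.03 Mb away, is among them, as are Igf1 at -1.60 Mb and Hsp90b1 at -2.76 Mb, all of which also belong to lists above. The nearest with a change of over 2-fold was Gas2l3 at -0.05 Mb (log2 1.25), and Spic, a macrophage transcription factor at -0.78 Mb, fell by 3.47 on the log2 scale. Whether their position has a part in these differences was not tested.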

How the data were processed

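Per the labels' protocols, RNA was extracted with Trizol and sequenced on a BGISEQ-500. RSEM (version not given) and the builds mm10 and GRCm38.p6 are named per the submitters' processing notes, while no source used here gives the aligner, annotation release or strand setting. The authors deposited estimated counts per gene without normalization, FPKM values scaled by gene length and depth, and TPM values. Overlapping sense and antisense genes cannot be told apart. Of 16728 identifiers, 16629 matched the reference gene list; 28 symbols had turned into dates or numbers and 22 were restored.

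Estimated counts were rounded, scaled by TMM and tested with edgeR 4.0.16 (R 4.3.3; robust quasi-likelihood, trended dispersion) in one fit of the 12 libraries in 4 groups with 8 residual degrees of freedom. filterByExpr with a minimum count of 10 kept 12275 genes and removed 4453. P-values were adjusted by Benjamini-Hochberg over all of them and called under 0.05. CPM are counts per 1000000 reads of the TMM-scaled library, the SE is the absolute log2 fold change divided by the root of F, and the biological coefficient of variation was 10.8%. Alternatives used DESeq2 1.42.0, limma 3.58.1 on log2(FPKM + 1), log2(FPKM + 0.1) and log2(TPM + 1), other filters, the pair of groups alone, a replicate block, each library left out and summed gene families. Counts were simulated for KO FAC against WT FAC over 12275 genes. Of genes changed by 1.5-, 2- and 4-fold, 70.1%, 76.1% and 95.5% were recovered, with 2.42% false calls. Few genes were changed in that simulation, up and down alike, against 49.5% called in the data. Its shares therefore do not carry over to the real comparison.

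The comparison, the 58 lists (1490 genes, 1451 in the table, 1343 tested) and the tests were chosen with earlier results of these data known. Genes were named by rule: 19 fixed genes; the 12 largest called changes in each direction whose libraries did not overlap and whose mean FPKM reached 5 in a group; up to 5 called members with the largest changes in each list with at least 3 called; 8 genes in each direction for the difference; and called genes within 5 Mb of Nr1h4. The 8 genes in each direction for the difference were taken among its called genes. Further list members were chosen as examples after their values were seen.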

Additional observations from a re-analysis of the deposited data

Results flagged for a closer look

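Genes were taken from the fixed genes, the largest changes under FAC and the largest differences between the agents. For 21 of them the genotype difference under FAC differed from that under AC. The test was of the difference itself (edgeR quasi-likelihood test, Benjamini-Hochberg over 12275 genes). Named list members outside these sets were left out, though some also had a called difference. Among them were Creld2 at 1.09 (edgeR adjusted p = 0.000331) and Gclc at -0.66 (edgeR adjusted p = 0.0323). Each value is the genotype effect, the log2 fold change KO against WT, under FAC minus that under AC.

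The effect was more positive under FAC for 12 of them. The values were Hamp 3.14 (effects of 2.59 under FAC and -0.54 under AC), Avpr1a 2.70 (3.61 and 0.91), the small heat shock protein Cryab 2.26 (2.94 and 0.68), the epithelial proteins Sprr1a 2.23 (3.06 and 0.83) and Sprr1b 1.91 (2.12 and 0.20), and the growth factor receptor Fgfr4 2.21 (3.29 and 1.09). They were Star 1.53 (3.17 and 1.64), the tyrosine pathway enzyme Hgd 1.43 (2.65 and 1.22), Slc10a1 1.14 (3.13 and 1.99), Abcb11 1.11 (-0.37 and -1.48), Hmox1 1.09 (0.93 and -0.16) and the fibrinogen chain Fgb 0.91 (1.87 and 0.96) for the others.

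The effect was more negative under FAC for 9 genes. The inducible Hsp70 genes had the lowest values, Hspa1a -3.51 (-2.61 and 0.90) and Hspa1b -3.01 (-1.92 and 1.10). The urate-degrading enzyme Uox (-1.22), the retinol dehydrogenase Dhrs9 (-1.22), the DNA methyltransferase Dnmt3a (-1.21), the chromatin reader Spin4 (-1.13), Ddit3 (-1.13), Stc2 (-1.09) and Mup21 (-0.79) followed. Uox stood at 127, 143 and 185 CPM in WT FAC and 111, 152 and 164 CPM in KO FAC, overlapping, and at up to 124 CPM in WT AC against 292, 213 and 214 CPM in KO AC. Dnmt3a overlapped under FAC as well, at 111, 143 and 129 against 138, 106 and 119 CPM, and was at 79.4, 72.4 and 78.6 against 133, 191 and 180 CPM under AC.

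The calls for 9 of the 21 genes held under each alternative run for them: Avpr1a, Cryab, Ddit3, Fgfr4, Hspa1a, Hspa1b, Spin4, Sprr1a and Sprr1b. The other 12 lost the call under at least 1 alternative, Stc2 under 16 of 21 and Slc10a1 and Dnmt3a under the replicate block alone.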

How the results depend on the processing

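The count of 6071 genes called under FAC stayed within 1.5 times under every alternative, between 4304 with the stricter filter and 6889 with limma on log2(TPM + 1), and at 5245 to 5960 with one library left out. On the TPM scale 1942 genes were higher and 4947 lower, against 3018 and 3053. The count of 387 genes for the difference between the 2 genotype effects moved most: 658 with DESeq2, 584 with limma on log2(FPKM + 1), 84 with the replicate block, and 95 to 643 with one library left out. The cause was not tested.

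Whether the replicate numbers 4 to 6 pair the samples could not be decided. Same-numbered WT FAC and KO FAC libraries deviated from their group means with r = 0.104, -0.103 and 0.208. KO FAC 6 correlated best with WT FAC 6 (0.208), but KO FAC 4 with WT FAC 5 (0.179) and KO FAC 5 with WT FAC 6 (0.0651). Deviations from a mean of so few libraries depend on each other, so these values neither show nor exclude a pairing. The block gave 5688 calls under FAC and 4670 under AC, and 4 of 300 named calls under FAC passed the threshold no longer. Of those 300 calls 268 held under every alternative and 0 changed sign. Many of these genes were named for their large called changes, so this share does not carry over to all called genes. Signs changed for genes not called, over ranges with one library left out of -0.57 to 0.04 for Abcb4, -0.66 to 0.47 for Nr0b2, -0.17 to 0.01 for Dnmt3a and -0.21 to 0.07 for Uox. Reads limit Nr0b2, Cyp7a1 and most markers of other cells.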

Other observations

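Further gene groups were also measured. HIF targets were called higher for 13 and lower for 2 of 23 tested members (median 0.45). The glycolytic regulators Pfkfb4 and Pfkfb3 were at log2 1.86 and 1.26, and the transcription factor subunits Hif1a and Epas1 at -0.67 and -0.51. On the TPM scale 7 HIF targets were higher and 3 lower. Of 23 p53 targets 11 were called higher and 2 lower, with Gdf15 at 0.95, Cdkn1a at 0.92 and Pmaip1 at 70 and 6 summed reads, and on the TPM scale 3 were higher and 6 lower. Circadian genes went both ways, 9 higher and 4 lower of 20: the repressor Bhlhe41 was at 2.45, and Per3 and Nr1d2 at -1.05 and -0.94. Per1 was at 1.05, but at 0.81 with an edgeR adjusted p of 0.0557 without KO FAC 4.

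Aldehyde, alcohol and aldo-keto oxidoreductases were called higher for 24 and lower for 7 of 51 (median 0.36), led by Akr1c6 and by the retinol dehydrogenase Rdh16, which stood at 0.395, 0.438 and 0.344 CPM in WT FAC and 6.28, 6.15 and 6.81 CPM in KO FAC. Among cholangiocyte markers Krt19 rose from 7.56, 9.31 and 7.69 to 17, 22.4 and 34.3 CPM with KO FAC 6 highest. START-domain carriers gave 6 higher and 1 lower of 12, led by Star. Autophagy and lysosome genes gave 13 higher and 6 lower of 38 (median 0.08), and on the TPM scale 5 higher and 13 lower (median -0.12). Proteasome subunits gave 7 higher and 5 lower of 31, but 0 higher and 22 lower on the TPM scale. Psmd6 was at -0.39, but at -0.32 with an edgeR adjusted p of 0.0551 without KO FAC 4.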
